A study of Mus musculus with 96 samples.

Results

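The expression of 6 transcription factor genes was followed along the mouse nephron: the nuclear receptors Hnf4a and Hnf4g, the large bZIP factor Maf, the paired-box factors Pax2 and Pax8, and the homeodomain factor Cux1. They were chosen by symbol and are 6 of the 54532 genes in the deposited table. RNA was sequenced from glomeruli and 14 tubule segments microdissected from kidneys of male C57BL/6 mice aged 6 to 8 weeks. The labels name no genetic change or treatment. There were 93 samples (87 tubule and 6 glomerulus samples). A mouse here is a mouse number within a group, or the PTS2 column that matched no single sample title, which gave 53 mice. The labels do not say whether a number shared by several groups marks the same animal. The number of animals is therefore not known. Proximal tubule was sampled as the early convoluted part (PTS1), the straight part in the cortical rays (PTS2) and its terminal stretch, within the outer stripe (PTS3). Thin limbs comprised the short-loop descending limb (DTL1), the long-loop descending limb in the outer (DTL2) and inner medulla (DTL3), and the ascending thin limb (ATL). Further downstream came the medullary (MTAL) and cortical (CTAL) thick limb, distal convoluted tubule (DCT), connecting tubule (CNT), and the cortical (CCD), outer medullary (OMCD) and inner medullary (IMCD) collecting duct. PTS2, CTAL and CCD had 5 mice, ATL and OMCD 4, and each of the other groups 3. Each value is in TPM, the share of transcripts after correction for transcript length, and pieces of one mouse and segment were averaged first.

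HNF4 alpha is the nuclear receptor that drives the proximal tubule's transporter and metabolic genes, and HNF4 gamma is its close paralogue. PAX2 and PAX8 are paired-box factors that establish and maintain the renal epithelial lineage and act partly in each other's place during kidney development. MAF is a basic leucine zipper factor of differentiated cells, among them macrophages, and CUX1 is a widely expressed repressor with cut repeats.

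The name "proximal and pan-renal" described some of the genes and not others. Hnf4a was highest in the 3 proximal groups. Hnf4g was highest in PTS2, with DTL1 (2.43 TPM) next and close to PTS3 (2.31 TPM). Maf was highest in PTS1 and next in glomerulus. Pax8 and Cux1 were above 10 TPM in 53 of 53 mice. Pax2 was at 1 TPM or more in 35 of 53 mice and had its lowest means in PTS2 and PTS3. Each of the 6 genes passed the filter on low values, and 6 of 6 differed among the 15 groups (limma F-test on log2(TPM + 1), Benjamini-Hochberg adjustment over 33793 genes, largest adjusted p 5.312e-14, Cux1). Of all genes tested, 93.9% did so. The panels of the 6 genes across the 15 groups show these patterns mouse by mouse.

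**Figure D1:**
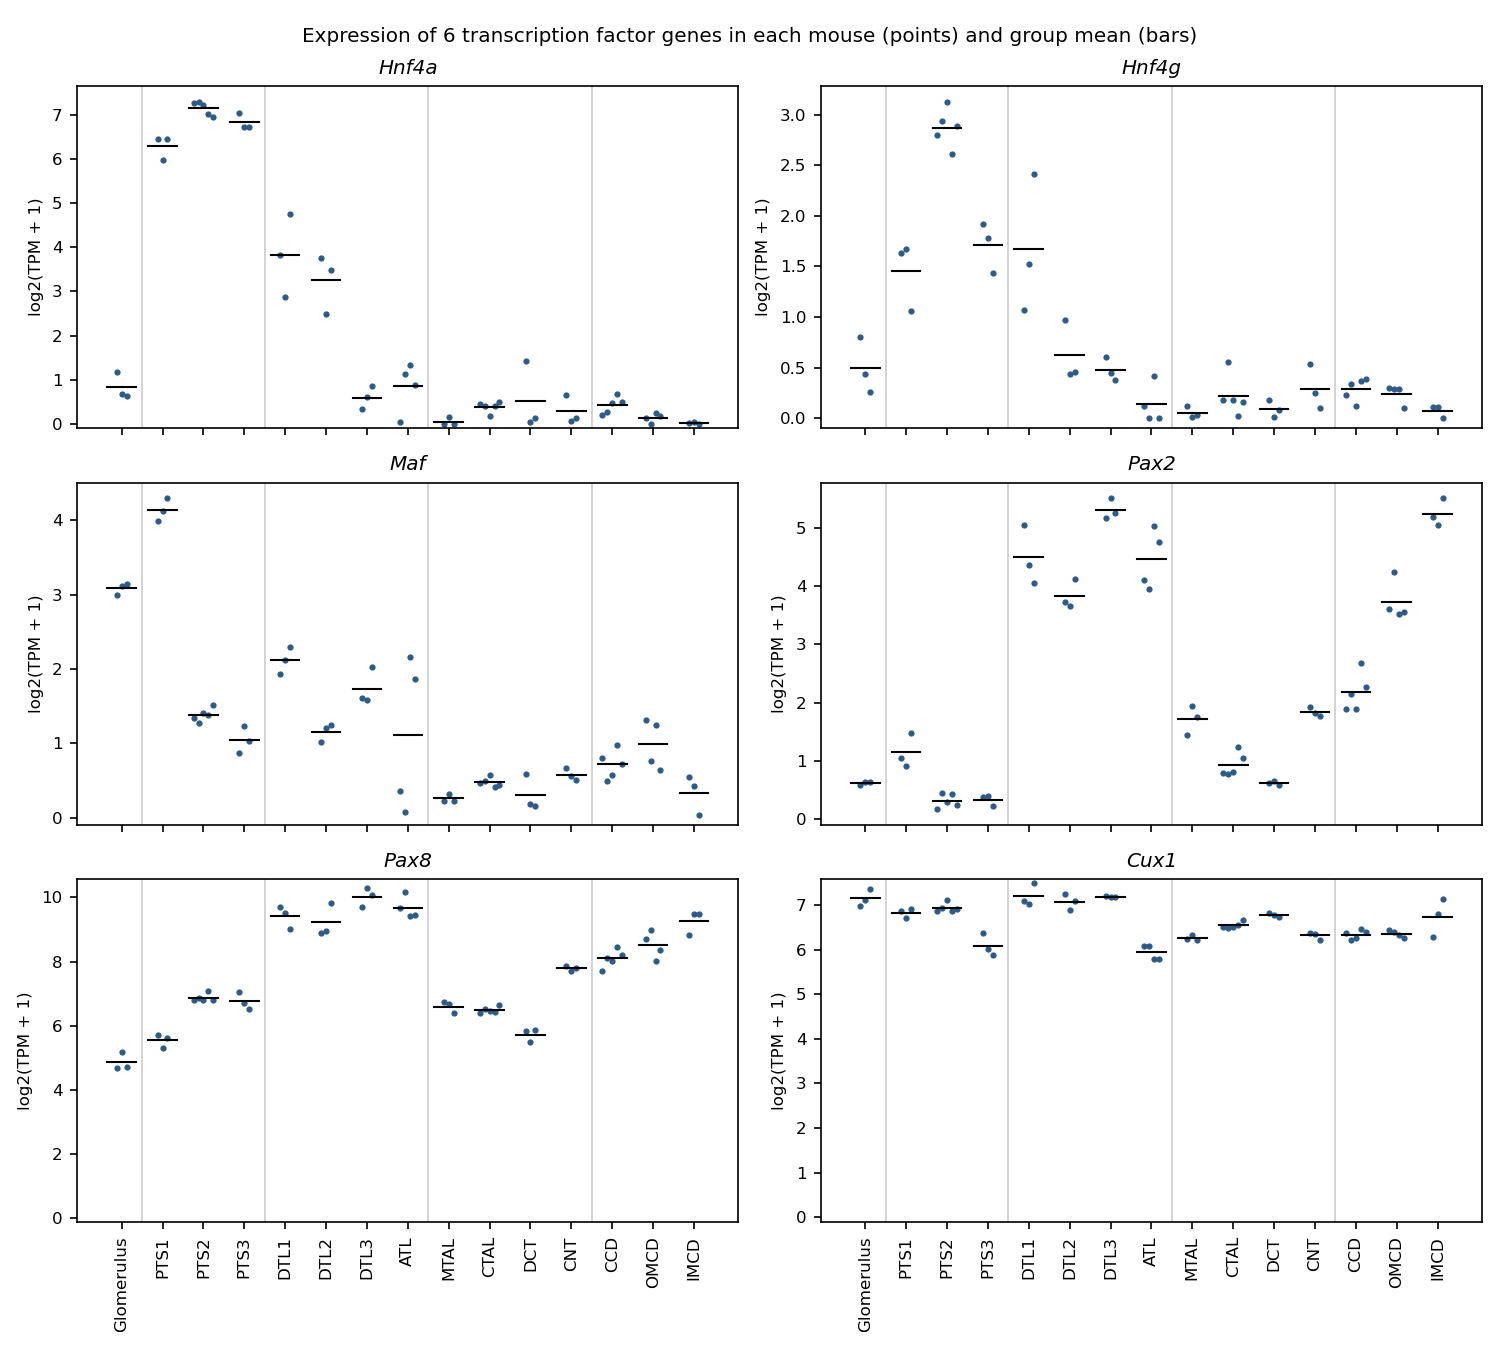
Level of each gene as log2(TPM + 1) (y axis, linear in log2 units, a range of its own per panel) in the 15 groups (x axis, from glomerulus to inner medullary collecting duct). Points are mice (pieces averaged) and bars are group means of the points. Hnf4a and Hnf4g peak in PTS2, Maf in PTS1, Pax2 and Pax8 in DTL3, and Cux1 spans a 2.45-fold range of group means.

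Of the segment markers, group means were highest for Slc34a3 in PTS1, Slc7a13 in PTS2, Slc14a2 in DTL1, Aqp1 in DTL3, Psca in ATL, Umod in CTAL, Slc12a3 in DCT and Aqp2 in IMCD. No marker of the list peaked in PTS3, DTL2, MTAL, CNT, CCD or OMCD: Atp11a was 813 TPM in PTS2 and 478 in PTS3, and Calb1 and Trpv5 were 7258 and 156 TPM in DCT and 1386 and 107 in CNT. Other features also differed between groups. The summed level of 6 endothelial genes was 2820 to 3720 TPM in DTL1 against 27.5 to 134 TPM in the 3 proximal groups. In the proximal contrast 6 of 6 endothelial genes were lower (Emcn -2.67, Plvap -2.54), as were 4 of 6 leukocyte genes (Ptprc -1.85, Lyz2 -1.79) and 2 of 5 stromal genes (Dcn -1.95, Col3a1 -1.32), where 19.8% of all genes were. Quantile normalization left 4, 1 and 1 of them lower, with Lyz2 at -0.9 and Col3a1 at -0.7 no longer called. That scaling called 13.5% of all genes, with 51.8% of those calls on the higher side. Csf1r of the leukocyte list lay on the other side (0.89, not called), and was called higher after median ratio rescaling (1.52) and quantile normalization (1.32). The part of these cells in the members' values was not tested. Olfactory and vomeronasal receptor genes, which kidney epithelium would hardly transcribe, reached 1 TPM in 704 to 861 of 1740 cases in DTL1, up to 517 in DTL3, 372 to 840 in glomerulus and 260 to 362 in DTL2. In ATL that number was 29 for mouse 2, 17 for mouse 3, 576 for mouse 4 and 659 for mouse 6. OMCD had 69 to 239, IMCD 3 to 22 and CCD 1. PTS1 had 6 to 27, PTS2 0 to 1 and PTS3 2 to 5. A pair of abundant RNAs took much of the proximal libraries: Gpx3 held 74429 to 100598 TPM in PTS1 and Kap 63323 to 83372 TPM in PTS3. In dissected pieces, fewer cells of a type and less RNA per cell cannot be told apart.

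Hnf4a (ENSMUSG00000017950, GENCODE M21 on GRCm38, chr2:163506808-163572910, plus strand) had its highest levels in the 3 proximal groups. Its RNA can start at either of a pair of promoters that lie 40298 bases apart in the RefSeq table, and a long antisense gene, Hnf4aos, starts between them. The promoters of Hnf4a and of Hnf4aos are shown because both genes had their highest levels in the same 3 segments. Each is the 250 bases before the start site, 5′ to 3′ on the gene's strand, from RefSeq (GRCm38.p6). Capitals mark matches, on either strand and without excluding overlaps, to CAAAGTCC for HNF4, a motif chosen after the sequences had been seen.
Hnf4a upstream promoter, chr2:163506607-163506856 (+): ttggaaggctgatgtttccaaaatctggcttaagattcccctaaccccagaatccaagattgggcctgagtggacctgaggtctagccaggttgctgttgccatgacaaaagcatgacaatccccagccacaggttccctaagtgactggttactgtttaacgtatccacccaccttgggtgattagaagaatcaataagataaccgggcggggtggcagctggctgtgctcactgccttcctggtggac
Hnf4a downstream promoter, chr2:163546905-163547154 (+): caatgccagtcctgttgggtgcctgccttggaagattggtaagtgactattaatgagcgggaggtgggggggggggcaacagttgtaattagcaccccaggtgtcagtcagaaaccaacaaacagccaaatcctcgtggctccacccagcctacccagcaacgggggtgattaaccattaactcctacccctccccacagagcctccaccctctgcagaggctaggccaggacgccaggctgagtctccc
Hnf4aos promoter, chr2:163541722-163541971 (-): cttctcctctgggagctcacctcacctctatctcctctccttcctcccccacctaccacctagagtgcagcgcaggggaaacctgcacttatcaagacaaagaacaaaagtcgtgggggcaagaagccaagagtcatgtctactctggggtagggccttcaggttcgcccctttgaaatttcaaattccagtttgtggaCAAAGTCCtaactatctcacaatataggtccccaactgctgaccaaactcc
The Hnf4aos window held 1 match, at position -51 from the start site, and 1.42% of 32851 RefSeq promoter windows of 300 bases held one. The windows found for Hnf4a (2), Pax2 (3), Pax8 (1) and Cux1 (1) held no match within 250 bases before to 50 after the start site. A match is a description of letters and not a mapped binding site. TPM are per gene, so the levels below do not tell the promoters apart.

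Hnf4a reached 86.6, 61.5 and 86.1 TPM in the 3 PTS1 mice. In the 5 PTS2 mice it was 154, 155, 148, 129 and 122 TPM, and in the 3 PTS3 mice 130, 105 and 105 TPM. PTS2 and PTS3 overlapped, and every PTS1 mouse was below both. Beyond the proximal tubule, Hnf4a stood at 13.2, 6.36 and 26.0 TPM in DTL1 and at 12.6, 4.62 and 10.2 TPM in DTL2. The mice of these 2 segments overlapped, and none of them reached a proximal mouse or fell to the range of DTL3, where Hnf4a was 0.26 to 0.80 TPM. The remaining groups were near 0, in descending order of means: ATL 0.897 ± 0.645 TPM (SD, n = 4), glomerulus 0.80 ± 0.391 (n = 3), DCT 0.60 ± 0.932 (n = 3), DTL3 0.527 ± 0.27 (n = 3), CCD 0.349 ± 0.175 (n = 5), CTAL 0.309 ± 0.103 (n = 5), CNT 0.245 ± 0.291 (n = 3), OMCD 0.106 ± 0.0819 (n = 4), MTAL 0.0367 ± 0.0635 (n = 3) and IMCD 0.0144 ± 0.0164 (n = 3). Mice of each neighbouring pair in that low run overlapped. The wide DCT spread came from 1 of the 2 pieces of mouse 1, at 3.09 TPM against 0.26 TPM in the other. In that mouse Slc34a1, a phosphate transporter of the proximal tubule, was 158 TPM against 2.29 and 3.10 TPM in the other 2 DCT mice, and the part of proximal RNA in the Hnf4a value was not tested.

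Hnf4a was higher in proximal tubule than in the other 11 tubule segments by 5.82 on the log2(TPM + 1) scale (SE 0.13, adjusted p 4.747e-35, limma). Hnf4a was lower in glomerulus than in PTS1 by a log2 difference of -5.48 (SE 0.31, adjusted p 1.228e-19). From PTS3 it was higher than in DTL1 by 3.00 (SE 0.31, adjusted p 2.33e-11) and than in DTL2 by 3.60 (SE 0.31, adjusted p 1.813e-13). DTL2 was higher than DTL3 by 2.63 (SE 0.31, adjusted p 8.922e-09), which a pseudocount of 5 TPM brought to 1.3. PTS1 and PTS2 differed by -0.87 (SE 0.28, adjusted p 0.0201), short of the difference of 1 that a call required.

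Hnf4a in descending limb could be set beside proximal genes measured in the same pieces. Its mean in DTL1 was 13.4% of the PTS3 mean (mice 5.61% to 23.0%), and in DTL2 8.06% (4.08% to 11.1%). Of 16 proximal genes, 9 were at 10 TPM or more in PTS3. Their median share was 10.4% in DTL1, from 4.6% for Slc34a1 to 18.8% for Cubn, a receptor of the endocytic apparatus. In DTL2 the median was 2.68%, from 0.702% for Pck1, a gluconeogenic enzyme, to 18.0% for Slc34a1. The Slc34a1 value in DTL2 rested on mouse 2, at 50.9%. In DTL1, Hnf4a lay inside the range of these genes, with 1 of the 9 above it. In DTL2 the 1 gene above it was Slc34a1, whose other mice were at 2.39% and 0.784%, and the next gene was Cubn at 7.57%. The DTL2 mice of Cubn (2.85% to 12.6%), Ggt1 (3.29% to 6.76%) and Lrp2 (1.78% to 5.18%) overlapped those of Hnf4a. The part of carried-over proximal RNA in the thin-limb level of Hnf4a was not tested. Kap was at 3.31% in DTL1 and 0.306% in DTL2.

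**Figure D2:**
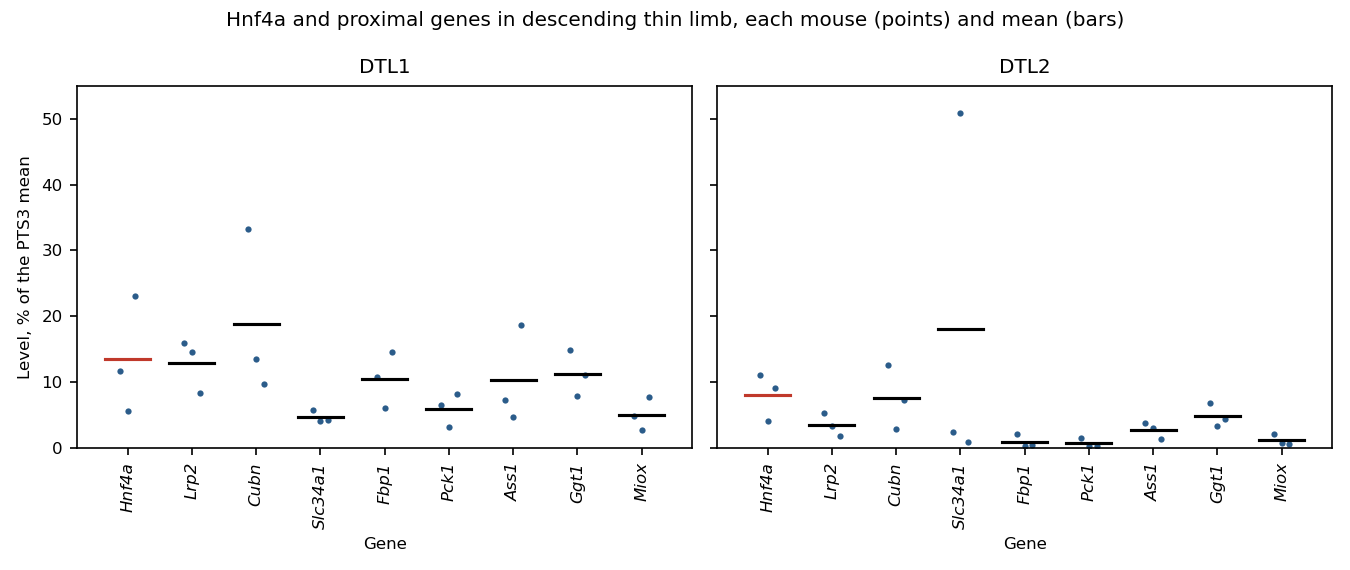
Level of Hnf4a (red bar) and of 8 of the 9 proximal genes (black bars) in DTL1 and DTL2 as a percentage of each gene's PTS3 mean (y axis, linear). Points are the 3 mice of a segment and bars their means. In DTL1 Hnf4a (13.4%) lies among the proximal genes. In DTL2 its mean (8.06%) is above all but Slc34a1, which rests on 1 mouse. Its DTL2 mice overlap those of Cubn, Ggt1 and Lrp2.

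The antisense gene Hnf4aos overlapped the Hnf4a locus by 34913 bases with no shared exon base. It averaged 17.3 TPM in PTS1, 22.3 in PTS2, 19.4 in PTS3 and 2.03 in DTL1, and 0.55 TPM or less elsewhere. The Hnf4a to Hnf4aos ratio per mouse had medians of 6.34, 6.12 and 5.11 in PTS1, PTS2 and PTS3. In DTL2, where Hnf4a was 8.06% of its PTS3 mean, Hnf4aos was 0.258% of its own. Whether counting used strand is not given in the sources used here, so reads of the intronic overlap cannot be assigned with certainty.

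Hnf4g (ENSMUSG00000017688, chr3:3508030-3658052, plus strand) was a low-level gene with its peak in PTS2. There it was 5.96, 6.64, 7.74, 5.12 and 6.42 TPM in the 5 mice. PTS1 mice had 2.10, 2.19 and 1.08 TPM, PTS3 mice 2.79, 2.43 and 1.71, and DTL1 mice 1.10, 1.88 and 4.32. The lowest PTS2 mouse was above each of these, and PTS1, PTS3 and DTL1 overlapped. DTL2 had 0.564 ± 0.343 TPM (SD, n = 3), and the means of the other 10 groups ran from 0.0383 TPM in MTAL to 0.433 TPM in glomerulus. PTS2 was higher than PTS3 by 1.31 (SE 0.20, adjusted p 2.043e-06), and PTS1 was lower than PTS2, the log2 difference being -1.42 (SE 0.20, adjusted p 1.376e-07). Both differences fell under 1 with a pseudocount of 5 TPM (0.67 and -0.74).

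The paralogues therefore differed in level and in shape within the proximal tubule. Hnf4a was a median of 41.1 times Hnf4g in PTS1, 23.3 times in PTS2 and 46.6 times in PTS3. In PTS2 the mice spanned 19.1 to 25.8, below every PTS1 (28.1 to 79.7) and PTS3 mouse (43.0 to 61.8). The 2 pieces of each PTS3 mouse differed widely in Hnf4g, at 4.9 and 0.68, 3.59 and 1.27, and 0.8 and 2.61 TPM. The separation of PTS2 from PTS3 in this ratio thus holds for averages of uneven pieces at low levels. Proximal tubule exceeded the other tubule segments in Hnf4g by 1.59 (SE 0.09, adjusted p 1.485e-19), a call lost with a pseudocount of 5 TPM (0.61). In DTL1 the ratio was 6.02, but the mean level of a receptor gene in the same 3 mice, 1.55, 1.56 and 2.46 TPM, was near that of Hnf4g. Quantile normalization turned the PTS3 to DTL1 difference of Hnf4g from -0.09 to 2.17, and the part of that background was not tested.

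Other genes of the HNF4 network did not follow a single pattern. Among 13 tested partners and regulators of HNF4, 3 were higher in proximal tubule, 2 were lower and 8 were not called, with a median of 0.03 beside -0.41 for all genes. Of all genes tested in this contrast, 4.02% were called higher and 19.8% lower. The counts of the lists below, as deposited, are to be read against these shares. Median ratio rescaling gave 5 higher and 2 lower, and quantile normalization 4 and 2. Under these scalings 16.3% and 13.5% of all genes were called, with 44.3% and 51.8% of those calls on the higher side. Rescaled counts of the lists below are to be read against these values. Nr1h4, the bile acid receptor FXR, was higher by 3.98 (SE 0.15, adjusted p 4.255e-27). Nr0b2, the corepressor SHP, was lower at -2.88 (SE 0.19, adjusted p 5.335e-18), and so was Ppargc1a, a coactivator of mitochondrial genes, at -2.68 (SE 0.09, adjusted p 3.637e-28). Of the 16 proximal transporter and enzyme genes, 16 were higher, with a median of 5.04. Among them was Fbp1 of gluconeogenesis at 9.05 (SE 0.26, adjusted p 2.578e-31). Those genes include known HNF4 alpha targets and were listed for their proximal expression, so their direction is not independent evidence.

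Maf (ENSMUSG00000055435, chr8:115682942-115707794, minus strand) marked the first proximal segment. It was 14.9, 16.4 and 18.6 TPM in PTS1 and 1.52, 1.42, 1.66, 1.59 and 1.85 TPM in PTS2, groups that lay far apart. Glomeruli had 6.95, 7.65 and 7.85 TPM. Below them came DTL1 (2.80, 3.34 and 3.91 TPM), DTL3 (2.04, 1.99 and 3.06), PTS2, ATL (1.61 ± 1.70, n = 4), DTL2 (1.23 ± 0.178, n = 3), PTS3 (1.07 ± 0.261, n = 3) and OMCD (1.03 ± 0.467, n = 4). The other 6 groups averaged 0.195 (MTAL) to 0.652 TPM (CCD). The highest and lowest group means differed 85.6-fold.

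PTS1 exceeded PTS2 in Maf by 2.76 (SE 0.26, adjusted p 5.573e-12), and that difference was 3.08 after median ratio rescaling and 2.55 after quantile normalization. Glomerulus was below PTS1, with a log2 difference of -1.06 (SE 0.29, adjusted p 0.001396). That call was lost without PTS1 mouse 3 (-0.98), with a pseudocount of 0.1 TPM (-1.15, adjusted p 0.07939) and with one of 5 TPM (-0.79). Over the alternatives run the difference lay at -2.78 to -0.79. The leukocyte gene Ptprc was 1.44, 1.78 and 1.09 TPM and Csf1r, a macrophage receptor gene, 0.66, 1.27 and 0.33 TPM in the 3 PTS1 mice. The summed level of 6 leukocyte genes was 3.67 to 12.7 TPM in PTS1 against 60.6 to 84.0 TPM in PTS2 and 375 to 480 TPM in glomerulus, and most of it in PTS2 was Csf1r (63.7 ± 9.69 TPM, n = 5). An antisense gene, Gm15655, whose 440 exon bases lie within Maf exons, stood at 7.11 TPM in PTS1 and 2.80 TPM in glomerulus. With use of strand not given, its reads cannot be told apart with certainty from those of Maf.

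In thin limbs the level of Maf moved with the receptor background. ATL mice 2 and 3 had 0.28 and 0.05 TPM, and mice 4 and 6, with 576 and 659 receptor genes detected, had 3.47 and 2.63 TPM. The mean level of a receptor gene in those 4 mice was 0.0657, 0.0351, 1.52 and 1.32 TPM. Quantile normalization reversed the difference between PTS3 and DTL1, from -1.10 (SE 0.29, adjusted p 0.0006882) to 1.36, and that between DTL1 and MTAL, from 1.86 (SE 0.29, adjusted p 3.716e-07) to -0.16. The part of the background in the thin-limb level of Maf was not tested.

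**Figure D3:**
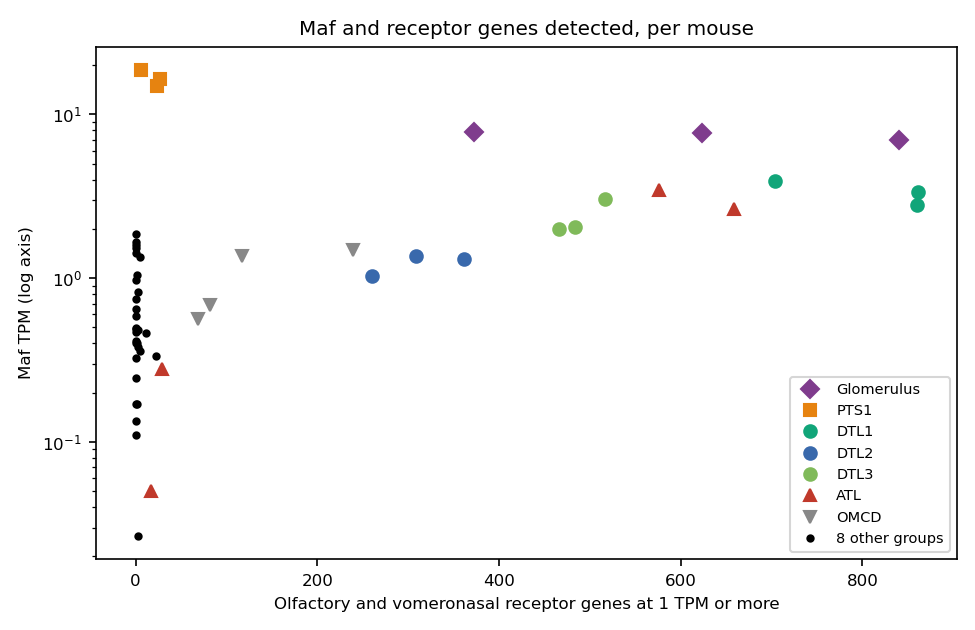
Maf level in TPM (y axis, log) against the number of olfactory and vomeronasal receptor genes at 1 TPM or more (x axis, linear), 1 point per mouse, with a marker for each of 7 groups and black dots for the other 8. PTS1 mice (14.9 to 18.6 TPM) have 6 to 27 such receptors, and the 4 ATL mice split into 2 with few receptors (0.05 and 0.28 TPM of Maf) and 2 with many (2.63 and 3.47 TPM).

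Of 10 tested MAF relatives and bZIP partners, 0 were higher in proximal tubule than elsewhere in the tubule and 3 were lower, near the 19.8% of all genes, with a median of -0.78. By limma, 7 of the 10 passed an unadjusted p under 0.05. The share of all genes at that threshold is not given here, so the count is no result about the list. Nfe2l1 and Nfe2l2, factors of proteasome and antioxidant genes that pair with small MAF proteins, were lower at -3.13 (SE 0.05, adjusted p 4.692e-40) and -2.72 (SE 0.08, adjusted p 3.717e-31). After either rescaling, Mafg became a call on the higher side (0.54 as deposited, 1.32 and 1.14 rescaled), leaving 1 higher and 2 lower.

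Pax8 (ENSMUSG00000026976, chr2:24420560-24475599, minus strand) had the highest group mean of the 6 and was detected in every mouse. Its mean was below that of Cux1 in glomerulus, PTS1, PTS2, CTAL and DCT, and below that of Hnf4a in the 3 proximal groups. The lowest mouse, a glomerulus sample, had 24.8 TPM. Group means fell from DTL3 (1053 ± 215 TPM, n = 3) and ATL (836 ± 212, n = 4) over DTL1 (695 ± 160, n = 3), DTL2 (629 ± 250, n = 3) and IMCD (626 ± 151, n = 3) to OMCD (379 ± 105, n = 4), CCD (278 ± 53.6, n = 5) and CNT (221 ± 11.7, n = 3). A lower tier held PTS2 (116 ± 10.2, n = 5), PTS3 (109 ± 20.4, n = 3), MTAL (96.5 ± 12.0, n = 3), CTAL (89.2 ± 6.62, n = 5), DCT (52.2 ± 7.38, n = 3), PTS1 (45.9 ± 6.22, n = 3) and glomerulus (28.5 ± 6.18, n = 3). Neighbours in this order overlapped in 11 of 14 cases. The gaps lay between CNT and PTS2, between CTAL and DCT, and between PTS1 and glomerulus.

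Pax8 in the 4 ATL mice was 812, 1144, 692 and 697 TPM, against 106, 101 and 83.0 TPM in MTAL. ATL was above MTAL without overlap, by 3.08 (SE 0.21, adjusted p 1.532e-16), the largest step of Pax8 between neighbours. Entering the thin limb it was lower in PTS3 than in DTL1 at -2.65 (SE 0.23, adjusted p 7.231e-14). That value lay at -2.84 to -1.55 over the alternatives run, and its call was kept. DCT mice had 55.8, 43.7 and 57.1 TPM and CNT mice 233, 210 and 221 TPM, a difference of -2.09 (SE 0.23, adjusted p 8.064e-10). Between PTS1 (51.1, 39.0 and 47.7 TPM) and PTS2 (111, 117, 111, 134 and 110 TPM) it was -1.32 (SE 0.20, adjusted p 9.371e-07), which quantile normalization brought to -0.83. A gene on the opposite strand, Gm13415, shared 367 exon bases with Pax8 and averaged at most 9.85 TPM, in DTL1. With use of strand not given, reads of these shared bases cannot be assigned with certainty.

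Pax2 (ENSMUSG00000004231, chr19:44756045-44837871, plus strand) had a profile much like that of Pax8 at a fraction of its level. DTL3 mice had 34.8, 44.6 and 37.0 TPM and IMCD mice 35.4, 32.0 and 44.6 TPM, and the groups overlapped. Next came DTL1 (22.5 ± 8.65 TPM, n = 3), ATL (22.2 ± 8.17, n = 4), DTL2 (13.5 ± 2.65, n = 3) and OMCD (12.6 ± 3.55, n = 4). Every mouse of these 6 groups was above every mouse of the rest. CCD had 3.62 ± 1.13 TPM (n = 5), CNT 2.57 ± 0.203 (n = 3), MTAL 2.31 ± 0.56 (n = 3), PTS1 1.25 ± 0.475 (n = 3), CTAL 0.929 ± 0.284 (n = 5), DCT 0.537 ± 0.0306 (n = 3) and glomerulus 0.533 ± 0.0289 (n = 3). PTS3 (0.263 ± 0.0814, n = 3) and PTS2 (0.247 ± 0.102, n = 5) were lowest. An antisense gene, Gm20395, overlapped Pax2 by 10751 bases with no shared exon base and averaged at most 13.6 TPM, in ATL. The limit on strand given for Hnf4aos applies there too.

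Between PTS3 and DTL1 the Pax2 difference was -4.16 (SE 0.24, adjusted p 2.796e-19), and between PTS3 and DTL2 -3.51 (SE 0.24, adjusted p 8.812e-17). Over the alternatives run they lay at -5.95 to -2.34 and -5.26 to -1.8, and both calls were kept. Along the collecting duct Pax2 was higher in each segment towards the papilla. CCD mice (2.70, 3.42, 2.70, 5.44 and 3.83 TPM) lay below OMCD mice (11.2, 17.9, 10.5 and 10.7 TPM), with a difference of -1.55 (SE 0.20, adjusted p 6.067e-08). OMCD in turn lay below IMCD without overlap, at -1.47 (SE 0.22, adjusted p 6.725e-07). The receptor background was higher in OMCD (69 to 239 genes) than in CCD (1) or IMCD (3 to 22), and its part in these steps was not tested. The 2 ATL mice with many receptor genes had 31.8 and 26.1 TPM and the other 2 had 16.3 and 14.5 TPM, and ATL exceeded MTAL by 2.76 overall (SE 0.22, adjusted p 4.05e-14).

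The PTS1 level of Pax2, 1.08, 0.875 and 1.78 TPM, was above each PTS2 mouse (0.13 to 0.36 TPM). The difference was 0.84 (SE 0.21, adjusted p 0.002624), which a call did not accept, though it became a call with a pseudocount of 0.1 TPM (2.0) and after median ratio rescaling (1.14). Cldn1, a claudin of the parietal layer of Bowman's capsule, was 13.0, 10.9 and 20.5 TPM in the same mice and 10.5 to 17.5 TPM in PTS2. Its part in the Pax2 level was not tested.

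The ratio of Pax8 to Pax2 set PTS2 and PTS3 apart from the other 13 groups, many of which overlapped. Its median was 504 in PTS2 (324 to 851) and 437 in PTS3 (324 to 536), against 44.6 in PTS1 (26.8 to 47.3) and 49.5 in glomerulus (45.7 to 64.8). Pax2 in PTS2 and PTS3 was 0.13 to 0.36 TPM, so these high ratios rest on values near 0 with no known counting error. From CTAL to CCD the median was 76.8 to 114. In the thin limbs, MTAL, OMCD and IMCD the medians were 33.3 in DTL1, 42.7 in DTL2, 28.0 in DTL3, 38.2 in ATL, 35.6 in MTAL, 29.5 in OMCD and 16.0 in IMCD (12.8 to 22.3). The IMCD mice lay below every mouse of the other groups except 1 ATL mouse at 21.8.

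**Figure D4:**
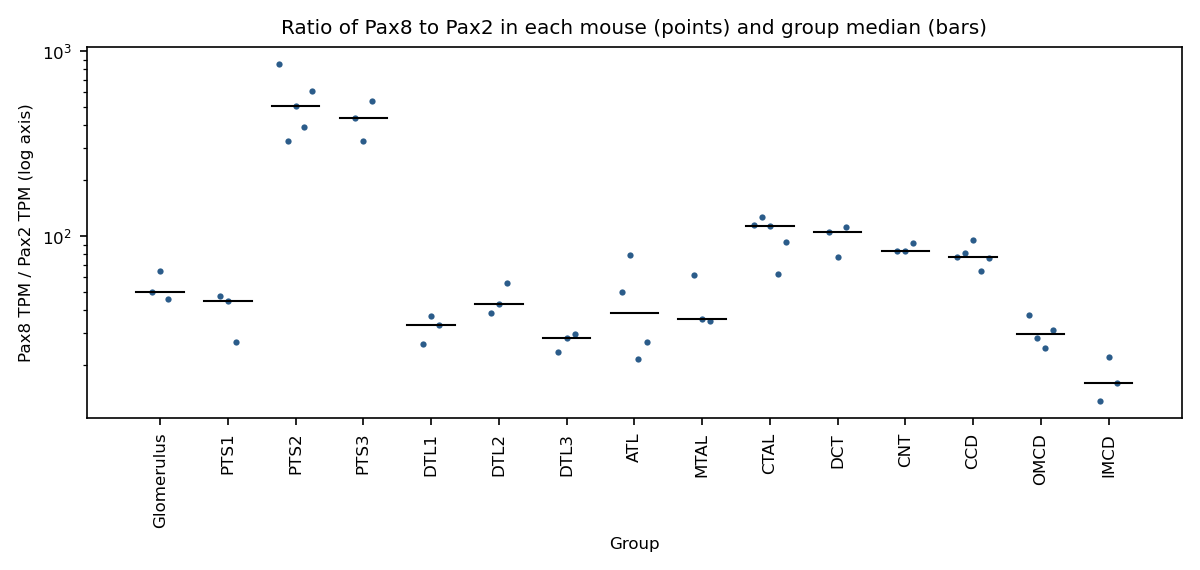
Pax8 TPM divided by Pax2 TPM (y axis, log) in the 15 groups (x axis). Points are mice and bars are group medians. PTS2 and PTS3 (324 to 851, with Pax2 at 0.13 to 0.36 TPM) stand above every other group, and IMCD (12.8 to 22.3) has the lowest median.

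Over the 15 group means, Pax2 and Pax8 correlated at Pearson r = 0.91 and Hnf4a and Hnf4g at 0.92, as a description over group means that share libraries. Other pairs of the 6 lay between -0.36 and 0.48. Region contrasts gave the same picture: thin limbs exceeded the other tubule segments by 2.73 in Pax2 (SE 0.10, adjusted p 1.693e-27) and by 2.42 in Pax8 (SE 0.09, adjusted p 1.502e-26). In the same contrast 5 of 6 endothelial genes were called higher, with a median of 2.46, beside 9317 of 33793 genes and a median of 0.65 over all genes. The part of endothelial RNA in the PAX differences was not tested. Proximal tubule was lower, at -2.52 (SE 0.10, adjusted p 1.301e-25) and -1.87 (SE 0.10, adjusted p 1.05e-21). Over the alternatives run these differences lay at -3.7 to -1.39 in Pax2 and -1.91 to -1.07 in Pax8, and both calls were kept. Collecting duct was higher in Pax2 by 1.43 (SE 0.10, adjusted p 1.251e-16), and in Pax8 by 0.98 (SE 0.09, adjusted p 2.814e-12), just short of a call. The Pax2 call was lost with a pseudocount of 5 TPM (0.79). Pax8 became a call without DTL1 (1.16), with ATL mice 4 and 6 alone, and without DTL2 mouse 3 (1.01), CCD mouse 1 (1.01), OMCD mouse 3 (1.04) or IMCD mouse 1 (1.06).

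Among 14 tested PAX partners and nephric duct genes, 0 were higher and 5 were lower in proximal tubule, with a median of -0.88. By limma, 13 of the 14 passed an unadjusted p under 0.05, again without the share of all genes and so no result about the list. Grhl2, an epithelial barrier factor, was lower at -4.34 (SE 0.09, adjusted p 1.955e-37), and Gata3, a factor of the nephric duct lineage, at -3.31 (SE 0.11, adjusted p 1.072e-28). Lhx1, a nephric duct homeodomain factor, was 0.64 as deposited and became a higher call after either rescaling (1.28 and 1.64). Of the other PAX family genes, 5 were testable and 0 were called. An unadjusted p under 0.05 in limma was passed by 4, with the same limit. Their highest group mean was 16.2 TPM, for Pax6 in DTL1.

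Cux1 (ENSMUSG00000029705, chr5:136248135-136567490, minus strand) was the most even of the 6. Its group means ran from 60.5 TPM in ATL to 148 TPM in DTL1. DTL1 (148 ± 27.3 TPM, n = 3), DTL3 (145 ± 1.70, n = 3), glomerulus (142 ± 18.7, n = 3) and DTL2 (135 ± 15.9, n = 3) were highest, and these 4 groups overlapped. PTS2 (122 ± 9.34, n = 5), PTS1 (113 ± 8.32, n = 3), IMCD (109 ± 31.7, n = 3), DCT (109 ± 3.41, n = 3) and CTAL (92.6 ± 4.84, n = 5) were intermediate. OMCD (81.1 ± 4.89, n = 4), CCD (80.1 ± 5.27, n = 5), CNT (78.9 ± 4.55, n = 3), MTAL (75.7 ± 3.69, n = 3), PTS3 (67.4 ± 12.5, n = 3) and ATL were lowest.

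The clearest drop of Cux1 was between the descending and the ascending thin limb. DTL3 mice had 147, 144 and 144 TPM and ATL mice 67.1, 66.7, 54.3 and 54.1 TPM, without overlap, and DTL3 was higher by 1.26 (SE 0.13, adjusted p 1.563e-10). Median ratio rescaling, which divides each library by its median ratio to the average over 8216 genes, brought this to 0.96. Within the proximal tubule, PTS2 exceeded PTS3 (81.6, 63.2 and 57.6 TPM) by 0.86 (SE 0.13, adjusted p 9.784e-07), short of a call. PTS3 was below DTL1 at -1.13 (SE 0.14, adjusted p 1.992e-09) and below DTL2 at -1.0 (SE 0.14, adjusted p 5.012e-08). Those differences were close to the median of all genes in the same pairs, -1.33 and -0.71. Median ratio rescaling took them to -0.03 and 0.02, and quantile normalization to -0.66 and -0.55. The first was also lost without DTL1 mouse 5 (-0.98), and the second without PTS3 mouse 2 (-0.97) or 3 (-0.89) or DTL2 mouse 1 (-0.92) or 3 (-0.99).

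Proximal tubule and the other tubule segments differed in Cux1 by 0.00 (SE 0.06, adjusted p 0.969). That value was 0.80 after median ratio rescaling and 0.28 after quantile normalization, so the evenness held for TPM as deposited. Of 7 tested cut-class genes and CUX1 processing genes, 1 was higher and 3 were lower, with a median of -0.49. Ctsl, the protease that cleaves CUX1, was higher by 1.02 (SE 0.07, adjusted p 1.122e-16), which quantile normalization brought to 0.75. Cux2, its paralogue, was lower at -1.62 (SE 0.16, adjusted p 3.348e-12) and Cdkn1b, a cell cycle inhibitor repressed by CUX1, at -1.26 (SE 0.10, adjusted p 1.778e-15), which the rescalings brought to -0.72 and -0.22. The list then held 2 higher and 1 lower after median ratio rescaling and 1 of each after quantile normalization.

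Between neighbouring groups, 29 of 90 tests were called, meaning an adjusted p under 0.05 and a log2 difference of at least 1. Pax2 had 8 of these calls, Pax8 6, Hnf4a 5, Maf 4, and Hnf4g and Cux1 3 each. From PTS3 to DTL1, 5 of 6 members were called, where 65.5% of all genes were. From PTS3 to DTL2 it was 4 of 6 (40% of all genes), and from DTL1 to MTAL 5 of 6 (56.6%). The first 2 pairs share the PTS3 mice, and PTS3 against DTL1 shares the DTL1 mice with DTL1 against MTAL. All 3 hold groups with the receptor background, and their all-gene medians were -1.33, -0.71 and 1.10. The share of all called genes on the higher side moved from 5.73% to 47.7%, from 9.62% to 45.1% and from 94.1% to 47.2% after quantile normalization. For glomerulus against PTS1 it moved from 90.7% to 47.5%, for ATL against MTAL from 80.7% to 42.8%, for CCD against OMCD from 14.3% to 56.5%, for OMCD against IMCD from 81.7% to 46.1% and for thin limb from 92.8% to 47.2%.

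At the remaining pairs the members' counts read as follows. Glomerulus against PTS1 had 2 of 6 called (51.9% of all genes), PTS1 against PTS2 3 of 6 (9.57%) and PTS2 against PTS3 1 of 6 (4.7%). In glomerulus against PTS1, median ratio rescaling and quantile normalization raised the count to 5 of 6, each lower in glomerulus. Under these scalings 29.9% and 21.1% of all genes were called, with 69% and 47.5% of those calls higher in glomerulus. Hnf4g moved from -0.96 to -1.55 and -2.02, Pax2 from -0.54 to -1.08 and -1.48, and Pax8 from -0.68 to -1.76 and -1.79. Cux1 changed sign there, from 0.33 to -0.77 and -0.15, and was not called. Within the thin limbs, DTL2 against DTL3 had 2 of 6 (9.58%) and DTL3 against ATL 1 of 6 (14.6%), and ATL against MTAL had 2 of 6 (28.1%). Hnf4a and Pax2 made up the DTL2 and DTL3 calls, and Pax2 differed there by -1.47 (SE 0.24, adjusted p 7.745e-06). Further down, DCT against CNT had 2 of 6 (5.22%), the 2 PAX genes, with Pax2 at -1.22 (SE 0.24, adjusted p 0.0001971). That Pax2 call was lost after quantile normalization (-0.84, adjusted p 0.0583 in limma) and with a pseudocount of 5 TPM (-0.45, adjusted p 0.09157). CCD against OMCD had 1 of 6 (12.1%) and OMCD against IMCD 1 of 6 (18.6%), in both cases Pax2. No member was called between MTAL and CTAL (0 of 6, 3.15% of all genes), CTAL and DCT (0 of 6, 4.35%) or CNT and CCD (0 of 6, 1.12%). By limma, an unadjusted p under 0.05 was reached there by 2, 1 and 0 members, for which the share of all genes is not given here. Pax2 in MTAL against CTAL (0.77, adjusted p 0.01603) became a call with a pseudocount of 0.1 TPM (1.24).

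Some other differences of members that were not called became calls under an alternative. Hnf4g in PTS3 against DTL2, 0.95 as deposited, was called with a pseudocount of 0.1 TPM (1.69), after median ratio rescaling (1.54), after quantile normalization (2.26), with pieces averaged before the log (1.09), and without PTS3 mouse 3 (1.06) or DTL2 mouse 1 (1.12). Pax2 in DTL3 against ATL (0.84) was called with mouse number as a block (1.06), with ATL mice 2 and 3 alone (1.27) and without ATL mouse 4 (1.03). Pax8 in DTL2 against DTL3 (-0.79) was called after quantile normalization (-1.12) and without DTL2 mouse 3 (-1.1). Cux1 in PTS2 against PTS3 (0.86) was called without PTS3 mouse 1 (1.01), and in DTL1 against MTAL (0.95) without DTL1 mouse 1 (1.0) or 3 (1.04). In ATL against MTAL, Maf (0.86) and Hnf4a (0.80) were called with ATL mice 4 and 6 alone (1.76 and 1.06), and Maf in DTL3 against ATL (0.60) with ATL mice 2 and 3 alone (1.5). Without ATL mouse 2, ATL against MTAL was 1.07 for Hnf4a and 1.12 for Maf, and without ATL mouse 3 it was 1.21 for Maf. These ATL subsets differ in receptor background, whose part was not tested.

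**Figure D5:**
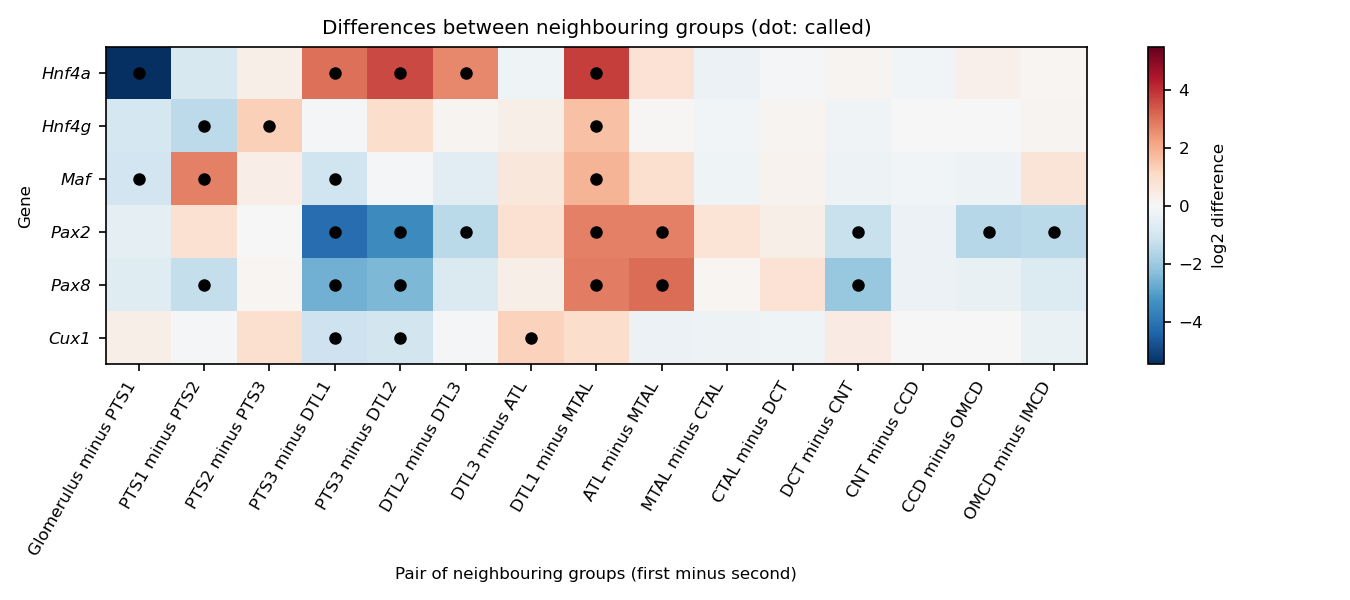
Log2(TPM + 1) difference of the first minus the second group (colour, red higher and blue lower in the first) for the 6 genes (rows) at 15 pairs of neighbouring groups (columns). Black dots mark the 29 called differences. PTS3 against DTL1, PTS3 against DTL2, DTL1 against MTAL and ATL against MTAL hold 5, 4, 5 and 2 dots, and MTAL against CTAL, CTAL against DCT and CNT against CCD hold none.

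Among the 4 region contrasts, each region against the other tubule segments, 13 of 24 tests were called. For proximal tubule 5 of 6 members were called (23.8% of all genes), 3 on the higher side (4.02%) and 2 on the lower side (19.8%). Maf was the least of the higher ones at 1.3 (SE 0.12, adjusted p 1.008e-12), and its call was lost with a pseudocount of 5 TPM (0.67). Thin limb had 2 of 6 (29.7%) and collecting duct 2 of 6 (7.36%), Pax2 and Hnf4a, the latter lower at -2.53 (SE 0.13, adjusted p 3.036e-21). For thick limb to connecting tubule, 4 of 6 were called (11.7%), all on the lower side: Hnf4a at -2.64 (SE 0.12, adjusted p 9.207e-23), Pax2 at -1.83 (SE 0.09, adjusted p 3.643e-21), Pax8 at -1.69 (SE 0.09, adjusted p 6.726e-21) and Maf at -1.06 (SE 0.11, adjusted p 9.095e-11). The Maf call was lost with a pseudocount of 5 TPM (-0.43), after quantile normalization (-0.51), with ATL mice 2 and 3 alone (-0.97) and without DTL1 (-0.98). The other regions are the reference of each contrast, so the 4 contrasts are not independent.

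Genes with the most similar profile over the 15 group means, among 12065 compared, were given by Pearson r as a description. For Hnf4a they were Tmem174 (0.994), Aldh8a1 (0.983), a retinoid dehydrogenase, and Acot12 (0.983), an acetyl-CoA thioesterase. Hnf4g was closest to Enpp3 (0.958), Selenbp2 (0.954) and the lipid droplet gene Plin5 (0.953), and each of these 6 genes was highest in PTS2. Maf was closest to the cationic amino acid transporter Slc7a2 (0.942), Clip4 (0.917) and the collagen Col8a1 (0.916), which was highest in glomerulus at 25.8 TPM and second in PTS1 at 16.7 TPM. Pax2 was closest to Erh (0.954), Klf5 (0.951), an epithelial zinc finger factor that was highest in IMCD at 73.1 TPM, and Pafah1b3 (0.947). Pax8 was closest to Cnksr1 (0.944), Pafah1b3 (0.943) and Dtnb (0.939), each highest in DTL3. The likeness for Cux1 was weaker: Sppl2a (0.851), Enpep (0.799) and Abhd5 (0.798).

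The spread between pieces of a mouse and between mice was compared for each gene. On the log2(TPM + 1) scale, the pooled SD between pieces of a mouse was 0.14 (Cux1), 0.18 (Pax8), 0.24 (Pax2), 0.28 (Hnf4a), 0.31 (Hnf4g) and 0.33 (Maf). Between mice of a group it was 0.17 (Cux1), 0.29 (Pax8), 0.28 (Pax2), 0.38 (Hnf4a), 0.24 (Hnf4g) and 0.34 (Maf). Cux1 thus varied least and Hnf4a most between mice. These SDs are of single pieces or mice, and a difference of group means is judged by its SE. That of Hnf4g between PTS3 and DTL1 (-0.09, SE 0.22) was smaller than its SE.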

How the data were processed

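RNA of microdissected mouse glomeruli and tubule segments was reverse transcribed with SMARTer V4 and made into libraries with Nextera XT, per the labels' protocols. The submitters' processing notes name STAR 2.5.4a and RSEM 1.3.0; genome build, annotation and use of strand are not given in the sources used here. The authors deposited TPM per gene, which keep no read depth, so no counting interval could be given. The table holds 93 sample columns; the authors' segment means were not used, and 3 single-cell libraries were not analysed here. One PTS2 column matched no single sample title and entered as a mouse without a number. Each mouse number within a group was counted as 1 mouse (53), so p-values measure spread between these units. Whether a number marks 1 animal across groups is not said in the labels.

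Values were turned to log2(TPM + 1) and averaged over pieces of a mouse. Genes at 1 TPM in at least 3 mice (33793 of 54532) were fitted by group in limma 3.58.1 (R 4.3.3, eBayes with trend), with Benjamini-Hochberg adjustment over all of them. The code was tested on simulated data. Fold changes on this scale understate low genes. Coordinates come from GENCODE M21 (GRCm38), whose IDs matched the table for each member.

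Named were the members, the 3 genes most like each (group mean of at least 10 TPM, without unnamed models, mitochondrial, ribosomal or pseudogenes), and the 2 called genes of each list with the largest difference in each direction; a few genes that this rule names are not reported here. Members and lists were chosen with earlier results of these data known. Alternatives changed the pseudocount, filter, scaling, averaging, trend, mouse number as a block, and left out each mouse.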

Additional observations from a re-analysis of the deposited data

Results flagged for a closer look

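In groups of 4 or 5 mice, 4 of the 30 gene and group pairs held a mouse far from the rest, by Dixon's test at the 95% level, which chance passes in about 1 in 20 groups. For Hnf4a in CTAL, mouse 3 stood at 0.135 TPM, below the range of 0.32 to 0.405 TPM over the remaining mice. Mouse 4 of OMCD had 0.07 TPM of Hnf4g while its group otherwise spanned 0.22 to 0.23 TPM. These 2 are at levels near 0. Pax2 reached 17.9 TPM in OMCD mouse 2, above the 10.5 to 11.2 TPM of the rest. Cux1 was 138 TPM in PTS2 mouse 4, where the remaining mice had 116 to 121 TPM.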

How the results depend on the processing

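Among neighbouring groups, 29 calls became 38 with a pseudocount of 0.1 TPM, 21 with one of 5 TPM, and 28 to 31 when each mouse was left out in turn. For regions, 13 calls became 17, 9 and 13 to 14. The share of all genes called also moved with pseudocounts of 0.1 and 5 TPM. For PTS1 against PTS2 it went from 9.57% to 26.4% and 5.36%, and for CNT against CCD from 1.12% to 0.781% and 0.491%. For thick limb to connecting tubule it went from 11.7% to 44.3% and 4.3%. The F-test called 6 members under each alternative run. Of the 42 called differences, 27 kept their call under every alternative and 15 lost it under at least 1, 12 of them with a pseudocount of 5 TPM. Median ratio rescaling turned the Cux1 difference of PTS3 minus DTL2 to 0.02. Quantile normalization turned PTS3 minus DTL1 to 2.17 for Hnf4g and 1.36 for Maf, PTS3 minus DTL2 to 1.36 for Maf, and DTL1 minus MTAL to -0.04 for Hnf4g and -0.16 for Maf; the cause was not tested. That scaling moved the all-gene median of PTS3 minus DTL1 from -1.33 to -0.18. In the proximal contrast, the share of called genes on the higher side was 16.9% as deposited, 44.3% after median ratio rescaling and 51.8% after quantile normalization.

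The mouse number as a replicate block gave 30 neighbouring and 13 region calls. The labels do not say that a number marks 1 animal across segments. Deviations from group means correlated at a median of 0 for same-numbered mice (290 pairs, -0.22 to 0.282) and also 0 for the 968 pairs of different number. Not every mouse correlated best with one of its own number: 26 of 52 did, where 290 of the pairs compared shared one, and this hint was not tested. Choosing ATL mice 2 and 3 alone, or 4 and 6 alone, gave 31 neighbouring calls each, a choice made after seeing the data, as was leaving DTL1 out of the regions (13 calls). TPM keep no depth, so levels near 0, such as those of Hnf4g and Maf outside their peaks and of Pax2 in PTS2 and PTS3, have no known counting error.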
